A study of Mus musculus with 8 samples.

Results

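The genes described here encode the nuclear-encoded subunits of respiratory complexes II, III, IV and V and cytochrome c of mouse tibialis anterior, a fast muscle at the front of the lower leg. They were taken as every probe of an Illumina bead array whose gene symbol is Sdha, Sdhb, Sdhc, Sdhd, Cyc1 or Cycs, or begins with Uqcr, with Cox and a digit from 4 to 8, or with Atp5. This gave 57 probes for 47 genes, of 25697 probes for 16593 named genes. No probe carried the symbol Sdha, so complex II is represented by 3 genes. Complex III has 9 genes, cytochrome c has 1, complex IV has 18 and complex V has 16.

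Complex II oxidizes succinate and passes electrons through ubiquinone to complex III, which hands them to cytochrome c. Complex IV, or cytochrome c oxidase, transfers these electrons to oxygen, and the proton gradient built by complexes III and IV drives ATP synthesis by complex V. Several complex IV subunits exist as a heart and muscle isoform and a ubiquitous isoform encoded by separate genes, and adult muscle fibres are known to use mainly the heart and muscle forms.

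Male C57BL/6 mice of 8 weeks had the muscle transfected with plasmid DNA that was either a control or carried p21, and it was taken 7 days later. p21 is the cyclin-dependent kinase inhibitor encoded by Cdkn1a. Each group has 4 arrays, called control and p21 replicates 1 to 4, and both groups went through plasmid transfection. Muscles of both legs were collected. The labels name neither the promoter of the plasmid nor the mouse behind each muscle, so each p-value reflects only how much these samples vary, and part of that may be technical. Precision is limited by the 8 arrays. Levels are log2 intensities, and a change is the p21 mean minus the control mean with its standard error (SE).

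The brightest Cdkn1a probe read 9.83 to 10.27 in control muscles and 11.25 to 11.72 in p21 muscles. Of the 9 skeletal muscle markers listed, 8 were measured, and their mean lay at 13.82 to 13.86 in controls and 13.63 to 13.81 in p21 muscles. Of that list the fast myosin gene Myh4 alone passed, and it fell by 0.44 ± 0.11 (limma adjusted p = 0.033). The slow myosin gene Myh7 was below the median of all values (8.39) in both groups. Among macrophage markers, 9 of 18 measured passed as higher in p21 muscles and none passed as lower, and 3 (Itgam, Ptprc and Msr1) were below that median. The macrophage list mean was 9.52 to 10.09 in controls and 10.38 to 10.73 in p21 muscles. Of the endothelial markers 3 of 11 were lower, and their list mean went from 9.78 to 9.92 in controls to 9.58 to 9.66. Of the fibroblast markers 1 of 6 was higher, with a list mean of 11.19 to 11.68 in controls and 11.59 to 12.25 in p21 muscles. Of 5 smooth muscle markers Acta2 rose by 0.78 ± 0.14 (limma adjusted p = 0.015) and Myh11 fell by 0.38 ± 0.08 (adjusted p = 0.020). Of 3 erythroid markers Alas2 fell by 0.30 ± 0.06 (adjusted p = 0.017), and the 5 white fat markers had differences of −0.29 to −0.02 and adjusted p of 0.183 or more. The part of these cells in the results below was not tested. In whole muscle, fewer cells of a type and less RNA per cell cannot be told apart.

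Across complexes II to V, 9 of 57 probes were lower in p21 muscles and 1 was higher, at a limma adjusted p of 0.05. This is 15.8% lower and 1.75% higher, where 4.35% of all probes on the array were lower and 3.68% were higher. The lower probes belonged to 8 genes, Sdhb and Sdhc of complex II, Cyc1 of complex III, Cox5a and Cox7a1 of complex IV, and Atp5j, Atp5mpl and Atp5pb of complex V. The probe that was higher belonged to Cox8a of complex IV. By complex, 2 of 6 probes were lower in complex II, 1 of 10 in complex III, 0 of 2 in cytochrome c (limma; 1 at unadjusted p under 0.05), 2 of 21 in complex IV and 4 of 18 in complex V. The median change was −0.29 in complex II, −0.07 in complex III, −0.20 in cytochrome c, −0.01 in complex IV and −0.14 in complex V, against −0.004 over all probes. These medians moved with the choice of probes and arrays. Over brighter probes alone complex IV stood at −0.11, and without p21 replicate 2 complex II stood at −0.18 and complex V at −0.065. On the background-subtracted scale the median was −0.46 for cytochrome c and −0.12 for complex III. Differences between complexes were not tested.

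Among the 57 probes the changes ran from −0.42 to 0.57. No member probe was lower at adjusted p 0.05 by limma without control replicate 1, control replicate 2 or p21 replicate 4, where 14, 17 and 16 were lower at unadjusted p under 0.05. With all arrays, 23 of the 57 were at unadjusted p under 0.05 in either direction, beside 5795 of all 25697 probes. That count over all probes is not given here for fits with an array left out. Without control replicates 3 and 4 the member probes lower at adjusted p 0.05 numbered 4 and 2, beside 1.83% and 2.28% of all probes. Without p21 replicate 3 they numbered 6, beside 3.90% of all probes. Over the whole array the lower calls fell from 1119 to 126, 146 and 29 without control replicate 1, control replicate 2 and p21 replicate 4. Cox8a lost its call without control replicate 1 or p21 replicate 4. A fit blocked on replicate number called 10 probes lower and 3 higher, the latter being Cox8a and both Cox6a1 probes. Of all probes that fit called 6.33% lower and 6.07% higher, so the 3 of 57 (5.26%) do not exceed the share of the array.

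**Figure D1:**
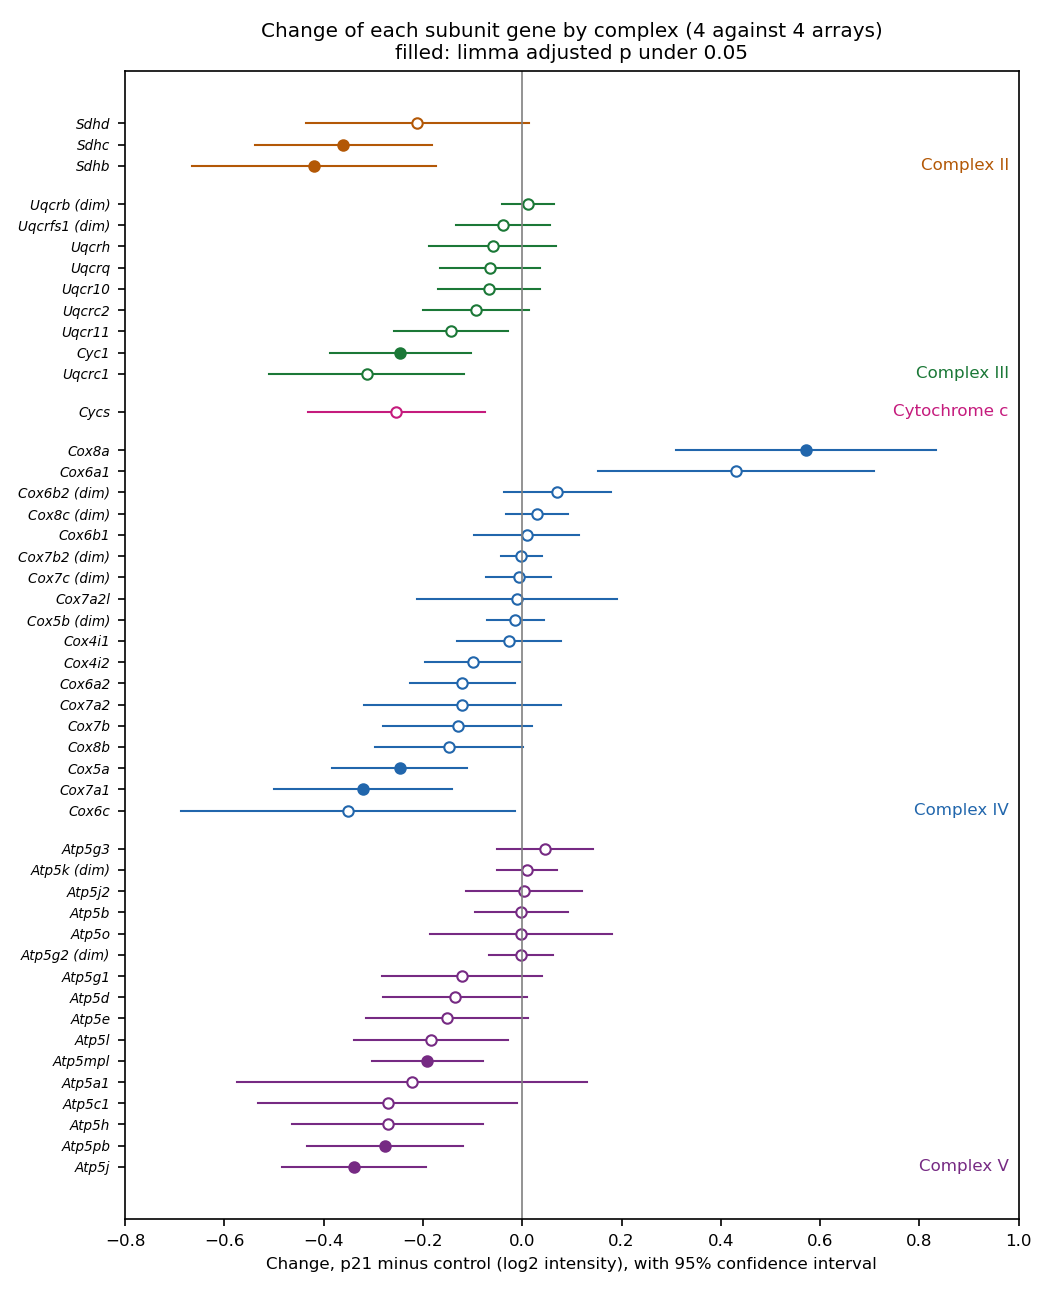
Change of each of the 47 subunit genes, p21 minus control on the log2 intensity scale, by its brightest probe, with 95% confidence intervals from limma (4 against 4 arrays). Filled points passed adjusted p 0.05, and probes with a mean below the median of all values are marked dim. Most points lie left of 0, with Cox8a at 0.57 and Cox6a1 at 0.43 on the right.

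The groups did not overlap in 13 probes that were lower and 3 that were higher. On the array as a whole 9.34% of probes were lower without overlap and 7.41% higher, so the 13 of 57 lie above the share of all probes and the 3 of 57 do not. The 3 higher probes were the one for Cox8a and both for Cox6a1. The 13 lower probes included Uqcr11, Uqcrc2, Cox4i2 and Cox6a2, which missed the threshold for adjusted p. Of these Cox4i2 had a p21 mean of 8.37, below the median of all values, and its change is not read. An exact permutation test, two-sided over 70 regroupings, gave p = 0.0286 for every such probe, the smallest that 4 against 4 arrays allow.

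The intensity of a probe bears on what could be called. Of the 57 probes, 14 had a mean of 8.21 to 8.37, below the median of all values and near the lowest value on the array (8.13). These were the brightest or sole probes of Cox5b, Cox7c, Cox6b2, Cox7b2, Cox8c, Uqcrb, Uqcrfs1, Atp5g2 and Atp5k and further probes of Sdhb, Sdhc, Cox6b1, Cox6b2 and Atp5j. No probe of them passed, and nothing is read from them about those genes. At the other end, 17 probes had a mean of 14 or more, where the highest value on the array is 15.27, and 4 of them were lower. Of all 128 probes of that intensity 8.59% were lower. Of the 13 probes between 12 and 14, 4 were lower and 1 was higher, where 19.3% of all 729 such probes were lower. Of the 9 probes between 9 and 12, 1 was lower (11.1%), where 12.5% of all 6061 such probes were lower. Whether changes near the highest intensities are compressed was not tested.

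Complex II, or succinate dehydrogenase, was lower in its iron-sulfur subunit and in a membrane anchor. Sdhb encodes the iron-sulfur protein, and its brightest probe read 13.36, 13.13, 13.05 and 13.05 in control replicates 1 to 4 and 12.92, 12.44, 12.87 and 12.67 in p21 replicates 1 to 4. Every p21 muscle lay below every control muscle, and Sdhb fell by 0.42 ± 0.11 (1.34-fold lower, limma adjusted p = 0.044). Without the intensity trend in eBayes the call was lost (adjusted p = 0.060). Another bright Sdhb probe changed by −0.38 ± 0.14 and missed the threshold (adjusted p = 0.119), with p21 replicate 1 inside the control range.

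Sdhc encodes an anchor that binds haem and ubiquinone together with Sdhd. It read 13.71, 13.62, 13.46 and 13.61 in controls and 13.41, 13.11, 13.21 and 13.22 in p21 muscles, again with no overlap. Sdhc fell by 0.36 ± 0.08 (1.28-fold lower, adjusted p = 0.026). Sdhd, the other anchor, read 9.53, 9.27, 9.23 and 9.21 in controls and 9.05, 8.84, 9.33 and 9.17 in p21 muscles, and the groups overlapped. Its change of −0.21 ± 0.10 had a 95% confidence interval of −0.44 to 0.01 (adjusted p = 0.254).

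In complex III, 1 of 9 genes fell. Cyc1 encodes cytochrome c1, the subunit that passes electrons to cytochrome c. It read 13.51, 13.51, 13.35 and 13.47 in controls and 13.25, 13.18, 13.24 and 13.19 in p21 muscles. The p21 values lay within a narrow range under all controls, and Cyc1 fell by 0.25 ± 0.07 (1.19-fold lower, adjusted p = 0.042). With the replicate block this call was lost (adjusted p = 0.053).

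The core proteins of complex III, encoded by Uqcrc1 and Uqcrc2, changed by −0.31 ± 0.09 (adjusted p = 0.055) and −0.09 ± 0.05 (adjusted p = 0.30). In Uqcrc1 the p21 muscles read 13.41 to 13.87 and the controls 13.86 to 14.02, so the groups touched at a single pair of arrays. With the replicate block Uqcrc1 passed (adjusted p = 0.038). The small subunit genes Uqcr11, Uqcrh and Uqcr10 read between 14.14 and 14.76 in every muscle. Their brightest probes changed by −0.14 ± 0.05, −0.06 ± 0.06 and −0.07 ± 0.05, and the interval for Uqcr11 was −0.26 to −0.03 before adjustment. Uqcrq, which reads close to the median of all values, changed by −0.07 ± 0.05.

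Cytochrome c itself, the mobile carrier encoded by Cycs, was read by 2 probes of low intensity. The brighter probe read 9.32, 9.30, 9.31 and 9.08 in controls and 9.06, 8.80, 9.13 and 8.99 in p21 muscles. The lowest control and the highest p21 value crossed. The change was −0.25 ± 0.08 (adjusted p = 0.081, exact permutation p = 0.0571), and with the replicate block Cycs passed (adjusted p = 0.044). The other probe changed by −0.15 ± 0.09.

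Complex IV genes moved both ways. Cox5a encodes a structural subunit on the matrix side, and it read 14.53, 14.50, 14.45 and 14.52 in controls and 14.35, 14.10, 14.30 and 14.27 in p21 muscles. Every p21 value lay under every control value, and Cox5a fell by 0.25 ± 0.06 (1.19-fold lower, adjusted p = 0.035). Cox6c, a small membrane subunit, had the most negative change of the complex at −0.35 ± 0.15, but its muscles overlapped and it missed the threshold (adjusted p = 0.202). With the replicate block Cox6c passed (adjusted p = 0.042). Cox6b1, which faces the intermembrane space, changed by 0.01 ± 0.05, with an interval of −0.10 to 0.11. Cox7b changed by −0.13 ± 0.07, and Cox7a2l by −0.01 ± 0.09.

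The rise in Cox8a and the levels of its muscle partner Cox8b are shown with the promoters of the 2 genes, because Cox8a is the sole subunit gene that rose. Cox8a encodes the ubiquitous form and Cox8b the heart and muscle form of subunit VIII. The windows run from 250 bases before to 50 bases after the annotated start, from RefSeq on GRCm38.p6, on the strand of the gene, 5′ to 3′. Capitals mark CCGGAAG, the core of ETS family sites, CAGCTG, an E-box, TATAAA, a core promoter element, and AAGGTCA, the core bound by estrogen-related receptors, on either strand. No marked motif overlapped another. Those of Cox6a1, the ubiquitous form of subunit VIa, and Cox7a1, the heart and muscle form of subunit VIIa, follow. The table held no window for Cox6a2.
Cox8a, chr19:7217567-7217866, minus strand: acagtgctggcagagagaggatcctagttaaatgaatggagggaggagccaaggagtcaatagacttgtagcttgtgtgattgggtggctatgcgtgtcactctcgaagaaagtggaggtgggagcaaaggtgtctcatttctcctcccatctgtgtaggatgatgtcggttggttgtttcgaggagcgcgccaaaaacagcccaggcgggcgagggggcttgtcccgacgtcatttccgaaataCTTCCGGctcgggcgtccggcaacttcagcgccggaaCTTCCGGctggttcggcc
Cox8b, chr7:140900397-140900696, minus strand: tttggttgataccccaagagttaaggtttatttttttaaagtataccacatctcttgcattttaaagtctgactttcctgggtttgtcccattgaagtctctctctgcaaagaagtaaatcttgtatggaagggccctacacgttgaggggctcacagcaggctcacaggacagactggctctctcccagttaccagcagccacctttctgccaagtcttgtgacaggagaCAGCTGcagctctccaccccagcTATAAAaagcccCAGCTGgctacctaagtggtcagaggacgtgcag
Cox6a1, chr5:115348909-115349208, minus strand: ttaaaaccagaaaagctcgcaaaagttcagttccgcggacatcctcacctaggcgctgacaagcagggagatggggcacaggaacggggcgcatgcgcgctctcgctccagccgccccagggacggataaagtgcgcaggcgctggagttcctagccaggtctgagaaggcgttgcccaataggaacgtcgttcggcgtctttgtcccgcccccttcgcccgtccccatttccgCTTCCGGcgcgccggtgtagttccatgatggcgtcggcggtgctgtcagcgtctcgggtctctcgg
Cox7a1, chr7:30183921-30184220, plus strand: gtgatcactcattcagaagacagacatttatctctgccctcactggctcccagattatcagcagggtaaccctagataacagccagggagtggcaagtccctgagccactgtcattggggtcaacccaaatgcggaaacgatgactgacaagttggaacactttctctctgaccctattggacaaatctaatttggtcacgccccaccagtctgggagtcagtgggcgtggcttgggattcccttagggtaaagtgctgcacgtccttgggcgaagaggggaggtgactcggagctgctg

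The Cox8a window held 2 ETS cores and 19 CG dinucleotides, and the Cox6a1 window 1 ETS core and 32 CG dinucleotides. The Cox8b window held no ETS core, 1 TATA box, 2 E-boxes and 2 CG dinucleotides. The Cox7a1 window held none of the 4 motifs and 7 CG dinucleotides, which is also the median over all 32851 promoter windows. The ETS core was present in 12 of 35 member genes with a window, or 34.3%, and in 8.86% of all windows. This core itself holds a CG, and the windows were not matched for CG content, so these shares do not compare like windows. E-boxes were present in 2 of the 35 genes and in 16.3% of all windows, the TATA box in 3 and in 13.6%, and the receptor core in 5 and in 4.72%. The 12 genes with an ETS core included Cox8a, which rose, and Sdhb and Atp5j, which fell. These matches describe letters in the windows, and the motifs were chosen with the changes known.

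Cox8a read 11.91, 12.29, 12.12 and 12.18 in controls and 12.46, 12.95, 12.56 and 12.81 in p21 muscles. All p21 muscles lay above all controls, with p21 replicate 2 highest and control replicate 1 lowest. Cox8a rose by 0.57 ± 0.12 (1.49-fold, adjusted p = 0.020), the single call toward higher levels among the 57 probes. Cox8b, the form that adult muscle fibres use, read 14.73, 14.60, 14.62 and 14.70 in controls and 14.58, 14.33, 14.63 and 14.52 in p21 muscles. Its groups overlapped, and its change of −0.15 ± 0.07 missed the threshold (adjusted p = 0.230).

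Cox6a1 and Cox6a2 are the matching pair of subunit VIa. Cox6a1, the ubiquitous form, read 11.51, 11.77, 11.65 and 11.81 in controls and 11.84, 12.47, 12.03 and 12.13 in p21 muscles. The groups did not overlap, though control replicate 4 and p21 replicate 1 nearly met. The change of 0.43 ± 0.13 missed the threshold (adjusted p = 0.061) and passed it with the replicate block (adjusted p = 0.014). The other Cox6a1 probe changed by 0.41 ± 0.13. Cox6a2, the heart and muscle form, read 14.86, 14.84, 14.91 and 14.85 in controls and 14.73, 14.67, 14.75 and 14.82 in p21 muscles. Every p21 value was under every control value, with a change of −0.12 ± 0.05 (adjusted p = 0.157).

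Subunit VIIa also has both forms. Cox7a1, the heart and muscle form, read 14.84, 14.85, 14.92 and 14.82 in controls and 14.65, 14.28, 14.70 and 14.51 in p21 muscles. The groups did not overlap, p21 replicate 2 was lowest, and Cox7a1 fell by 0.32 ± 0.08 (1.25-fold lower, adjusted p = 0.037). It missed the threshold without the intensity trend (adjusted p = 0.058) and with robust eBayes (adjusted p = 0.053). Cox7a2, the ubiquitous form, read 9.55, 9.32, 9.25 and 9.11 in controls and 9.29, 9.05, 9.22 and 9.19 in p21 muscles. These values overlapped, with a change of −0.12 ± 0.09 and an interval of −0.32 to 0.08. Subunit IV was read by Cox4i1, the general form, at 14.54 to 14.67 in all muscles, with a change of −0.03 ± 0.05. Its lung-enriched isoform Cox4i2 read 8.31 to 8.59, with a change of −0.10 ± 0.04 (adjusted p = 0.203).

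**Figure D2:**
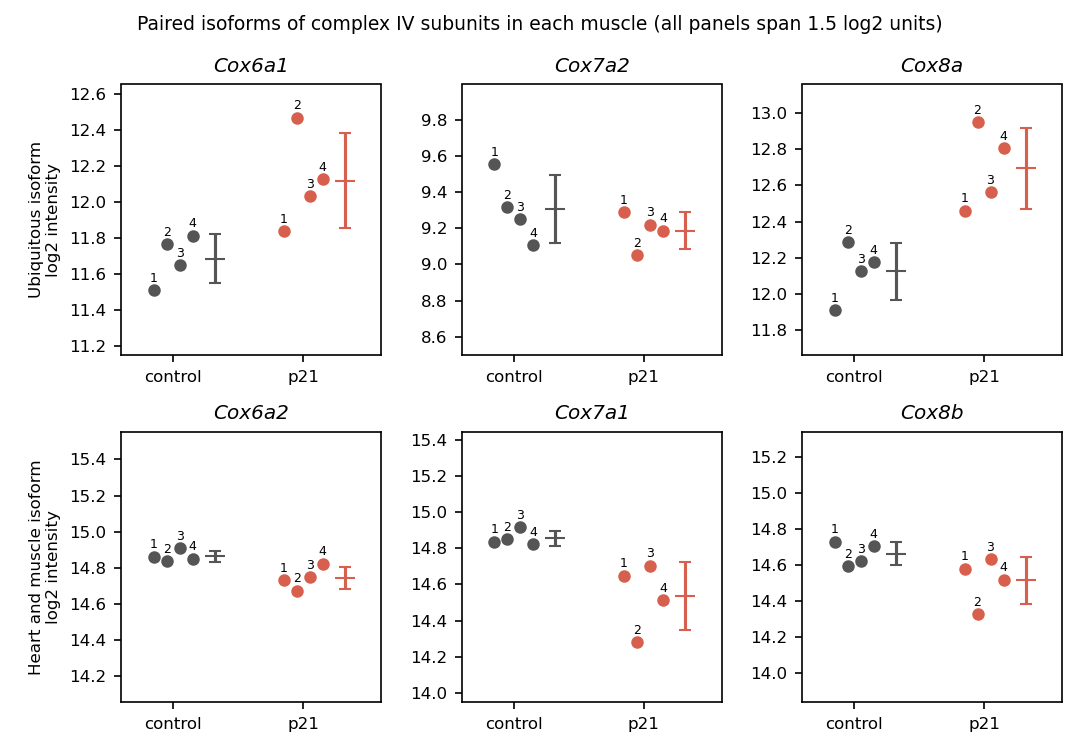
Log2 intensity of the ubiquitous isoform (top) and the heart and muscle isoform (bottom) of subunits VIa, VIIa and VIII in each muscle, numbered by replicate, with mean and SD (n = 4 per group). Cox8a and Cox6a1 are higher in all p21 muscles than in all controls, and Cox7a1 and Cox6a2 are lower.

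Whether the isoforms of a subunit changed unequally was tested on the difference between their probes within each array, in 5 pairs of which both genes had a mean over the 8 arrays above the median of all values. Cox4i2 met this through its control values alone, with a p21 mean of 8.37, so nothing is read from its pair. The log2 difference of Cox8a minus Cox8b shifted by 0.72 from control to p21 muscles, and that of Cox6a1 minus Cox6a2 by 0.55. In both pairs the 4 p21 values lay above the 4 control values (exact two-sided permutation p = 0.0286, adjusted over the 5 pairs p = 0.0714). Cox7a2 minus Cox7a1 shifted by 0.20 (exact permutation p = 0.143, adjusted 0.179), Cox4i1 minus Cox4i2 by 0.07 (exact permutation p = 0.400) and Atp5g1 minus Atp5g3 by −0.17 (exact permutation p = 0.0571, adjusted 0.0952). No pair passed 0.05 after adjustment. Without p21 replicate 3, the Cox8, Cox6a and Atp5g pairs did, each at an adjusted exact permutation p of 0.0476. The Cox8 and Cox6a pairs were already at the smallest permutation p possible with all arrays. Whether their adjusted p passed therefore depended on a further pair reaching that smallest p, not on these pairs themselves. The test compares changes, not levels, between probes.

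The changes of Cox8a and Cox6a1, both ubiquitous forms, had the same sign as those of the macrophage markers that passed. Those of the ubiquitous form Cox7a2 (−0.12 ± 0.09) and the general form Cox4i1 (−0.03 ± 0.05) did not. Over the 18 macrophage markers measured the median change was 0.71. Of that list Cd163 changed by −0.17 ± 0.08 (limma adjusted p = 0.250) and Msr1, below the median of all values, by −0.03 ± 0.03. The part of macrophages in the changes of these subunit genes was not tested. Cox8b and Cox7a1 are also characteristic of brown fat, whose marker Ucp1 read 8.31 in controls and 8.28 in p21 muscles, below the median of all values. Of the 5 brown fat markers, 1 was lower. This was Ppargc1a, a coactivator that muscle also expresses, which fell by 0.32 ± 0.08 (adjusted p = 0.030).

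In complex V, the ATP synthase, 3 of 16 genes fell. They belong to the membrane part or the stalk that holds the catalytic head, as do most of the 16. Whether genes of these parts changed differently from those of the head was not tested. Atp5j encodes coupling factor F6 of the peripheral stalk. Its brightest probe read 14.18, 14.21, 14.09 and 14.23 in controls and 13.96, 13.73, 13.88 and 13.78 in p21 muscles, without overlap. Atp5j fell by 0.34 ± 0.07 (1.26-fold lower, adjusted p = 0.017), the smallest adjusted p among the 57 probes. Another Atp5j probe fell by 0.42 ± 0.09 (adjusted p = 0.022), and its remaining probe was near the lowest values on the array.

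Atp5pb encodes subunit b, the long helix of the same stalk. It read 13.72, 13.75, 13.61 and 13.71 in controls and 13.57, 13.40, 13.40 and 13.30 in p21 muscles. The groups did not overlap, and Atp5pb fell by 0.28 ± 0.07 (1.21-fold lower, adjusted p = 0.040). Atp5mpl encodes a small proteolipid of the membrane part and read 14.54, 14.52, 14.47 and 14.55 in controls and 14.39, 14.26, 14.35 and 14.32 in p21 muscles. It fell by 0.19 ± 0.05 (1.14-fold lower, adjusted p = 0.043), and the call was lost with the replicate block (adjusted p = 0.067).

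Genes of the catalytic head gave no call. Atp5b, the catalytic beta subunit, read 15.04 to 15.13 in all 8 muscles, close to the highest value on the array, with a change of −0.002 ± 0.04. Atp5a1, the alpha subunit, changed by −0.22 ± 0.16, with an interval of −0.58 to 0.13, and p21 replicate 2 read lowest at 9.96. Atp5c1, Atp5d and Atp5e, the gamma, delta and epsilon subunits of the central stalk, changed by −0.27 ± 0.12, −0.14 ± 0.07 and −0.15 ± 0.07.

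Further genes of the stalk and membrane part also missed the threshold. Atp5h, subunit d of the peripheral stalk, changed by −0.27 ± 0.09 (adjusted p = 0.082), and Atp5o, which joins that stalk to the head, by −0.003 ± 0.08. Atp5l and Atp5j2, subunits g and f, changed by −0.18 ± 0.07 and 0.004 ± 0.05. The c-ring subunit is encoded by Atp5g1, Atp5g2 and Atp5g3, which give the same mature protein. Atp5g1 read 14.61 to 14.71 in controls and 14.32 to 14.69 in p21 muscles, with a change of −0.12 ± 0.07. Atp5g3 read 14.73 to 14.80 in controls and 14.78 to 14.86 in p21 muscles, with a change of 0.05 ± 0.04 and an interval of −0.05 to 0.14.

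The muscle of p21 replicate 2 stood apart within its group. Of the 43 member probes brighter than the median of all values, 32 were lowest in this array among the 8. Over all 12742 such probes this array was lowest in 27.1%. The median deviation of the 43 probes from the control mean was −0.27 in p21 replicate 2 and −0.08, −0.10 and −0.13 in p21 replicates 1, 3 and 4. The same array had the highest Cox8a and Cox6a1 values. Without it, 8 of 57 probes were lower and 1 was higher, beside 3.53% and 4.02% of all probes.

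**Figure D3:**
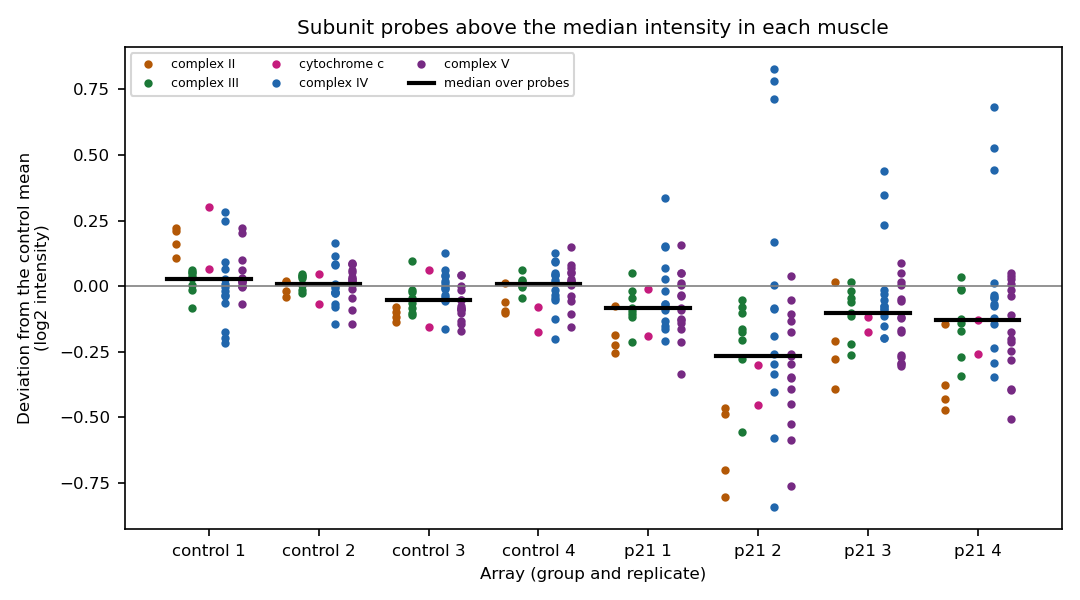
Deviation of each of the 43 member probes brighter than the median of all values from its mean over the 4 controls, in log2 intensity, for every array, coloured by complex. Black bars are medians over the probes. The p21 medians lie at −0.27 to −0.08 and the control medians at −0.05 to 0.03, and Cox8a is the highest point in each p21 array.

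Assembly factors, which insert cofactors and join subunits, were described from lists of proteins that act on each complex. Of 36 measured, 8 fell and 1 rose, beside 4.35% and 3.68% of all probes. Only 4 of the 36 lay below the median of all values, and of all probes above that median 8.63% were lower. The factors were not compared with probes of matching intensity. Sdhaf1 and Sdhaf3, which help to deliver iron-sulfur clusters to Sdhb, fell by 0.33 ± 0.09 (adjusted p = 0.042) and 0.36 ± 0.10 (adjusted p = 0.047). Of 5 complex III factors, Uqcc1, an early assembly factor for cytochrome b, fell by 0.53 ± 0.11 (adjusted p = 0.019) and Ttc19, which acts late in assembly, by 0.55 ± 0.13 (adjusted p = 0.027). Uqcc1 read 11.99 to 12.28 in controls and 11.35 to 11.72 in p21 muscles, without overlap.

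Of 19 complex IV factors 1 fell, Coa7 by 0.19 ± 0.05 (adjusted p = 0.048). Cox10, which makes haem for the complex, changed by −0.53 ± 0.15 and missed the threshold (adjusted p = 0.052). Of the 3 genes on the list for cytochrome c handling, Aifm1 fell by 0.33 ± 0.08 (adjusted p = 0.027). The list does not show that each of them acts on cytochrome c itself. For complex V, Tmem70 fell by 0.38 ± 0.11 (adjusted p = 0.0496) and Fmc1 by 0.49 ± 0.13 (adjusted p = 0.044), both of which assist its assembly.

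The factor that rose was Atpif1, which encodes the inhibitor that stops complex V from splitting ATP. It read 11.96, 12.28, 12.29 and 12.56 in controls and 12.76, 13.33, 12.71 and 12.91 in p21 muscles. All p21 muscles lay above all controls, with p21 replicate 2 again highest. Atpif1 rose by 0.65 ± 0.15 (1.57-fold, adjusted p = 0.026), but it missed the threshold when control replicate 1, 2 or 3 or p21 replicate 4 was left out. Uqcc1 and Ttc19 did so for control replicates 1 and 2 and p21 replicate 4. No probe carried any of the 12 names listed for mitochondrially encoded subunits, which are not analysed here.

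**Figure D4:**
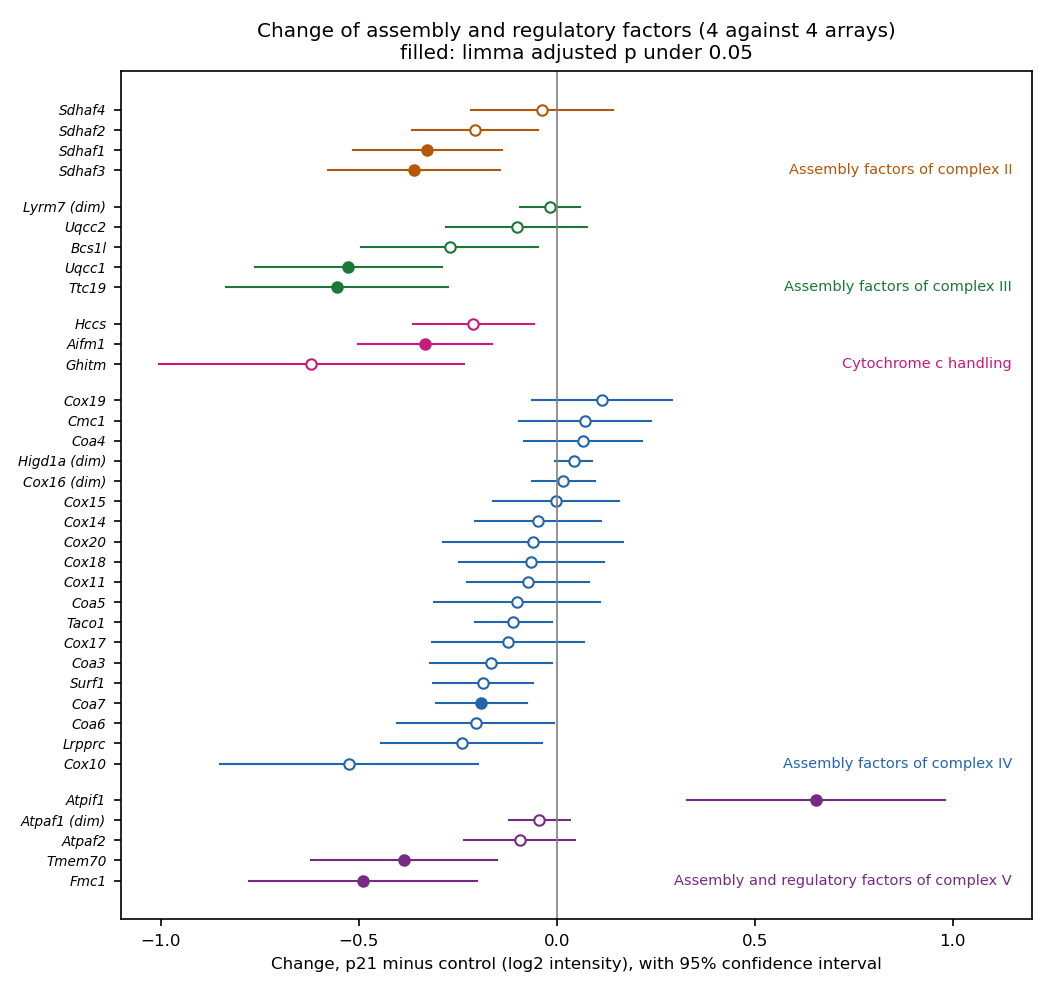
Change of 36 genes listed as assembly, regulatory or cytochrome c handling factors, p21 minus control on the log2 intensity scale, by the brightest probe of each gene, with 95% confidence intervals from limma (4 against 4 arrays). Filled points passed adjusted p 0.05. Atpif1 lies at 0.65, and the 8 genes that fell lie at −0.55 to −0.19.

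Complex I, which feeds electrons into the same chain, is given for comparison. Of its 44 probes 12 were lower by limma, beside 4.35% of all probes and 8.63% of those above the median of all values. Their median change was −0.24, and all 44 changes were below 0. In complexes II to V 9 of 57 probes were lower, with a median of −0.09. Probes below the median of all values made up 14 of these 57 and 1 of the 44 in complex I. Over the 43 brighter probes of complexes II to V the median was −0.14, with 9 lower. Whether the 2 sets differ was not tested.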

How the data were processed

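Total RNA of 8 tibialis anterior muscles was amplified and biotin-labelled for Illumina arrays of 1 colour, per the labels' protocols. The deposited table holds log2 intensities. The software and background correction of the authors are not stated in the labels. Sorted values differed between arrays by at most 0.00073, which is what quantile normalization gives. Symbols came from the platform annotation, in which 23978 probes have 1 symbol and 1719 are unnamed here, and the Entrez numbers of all 57 member probes matched RefSeq. Of 47 genes 35 had a promoter window.

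All 25697 probes entered 1 limma 3.58.1 fit in R 4.3.3 (lmFit, then eBayes with its trend option). Two-sided p-values were adjusted by Benjamini-Hochberg across the whole array, and 0.05 was the threshold. A gene is given by its brightest probe. Single values and isoform differences had exact permutation tests (Python 3.11.15). The rule for full values took up to 4 called genes per complex and direction, all Sdh and cytochrome c genes and isoform pairs; the other genes are given to account for every member. Members, lists and motifs were chosen with earlier results of these data known. Both groups are numbered 1 to 4. Same-numbered arrays deviated together, with correlations of 0.483, 0.264, 0.212 and 0.181. Each exceeds the minimum of 0.1 for a pair, so the numbers were read as possible pairs on the basis of the data alone. This pairing was used only in the alternative settings, the fit with the replicate block and the paired isoform tests. The main limma fit and the main exact permutation tests treated the arrays as unpaired. Control replicate 3 correlated more with p21 replicate 4, at 0.448, and control replicate 4 more with p21 replicate 2, at 0.297. Both mismatches leave the pairing uncertain. The fit was tested on simulated data for this comparison with 25697 probes, where 45% of 100 bright probes changed by 0.3 and 77% of 100 changed by 0.5 were recovered, with 6 false calls among 128. The simulated noise was independent between probes, and bright meant only above the median probe. These rates may therefore not hold for the real arrays, where probes can deviate together.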

Additional observations from a re-analysis of the deposited data

Results flagged for a closer look

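Of 54 groups of 4 values examined, 4 held a value whose gap to its nearest neighbour took up more of the range of the group than Dixon's 95% critical value, where chance gives about 1 in 20. In Cycs the lowest control, replicate 4 at 9.08, lay apart from the other controls (ratio 0.926). In Cox4i2 the lowest p21 muscle, replicate 1 at 8.31, lay apart (ratio 0.878). The lowest control value of Cox4i1 minus Cox4i2, 6.02, gave a ratio of 0.859. In Atp5g1 minus Atp5g3 the lowest p21 value, −0.49 in replicate 2, gave a ratio of 0.849.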

How the results depend on the processing

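The 19 genes given by the rule kept the direction of their change in all 342 alternative values, of which 57 lost and 5 gained a call at 0.05. The replicate block, brighter probes alone, robust eBayes and eBayes without trend alter only the p-values, so the direction could not reverse there. Repeated quantile normalization and median centring left the changes almost the same. At adjusted p 0.01 limma called 0 member probes lower and 0 higher, where 24 and 109 of all 25697 probes passed. At unadjusted p under 0.05 there were 19 lower and 4 higher member probes, beside 5795 of all probes in either direction. At adjusted p 0.1 limma called 12 lower and 3 higher, beside 1908 and 1582 of all probes. The 3 of 57 do not exceed the share of the array. The replicate block gave 10 lower and 3 higher (6.33% and 6.07% of all probes), brighter probes alone 11 and 2 (13.0% and 9.92%), and robust eBayes 4 and 2 (4.63% and 3.64%). Robust eBayes ended the calls of Atp5mpl, Atp5pb, Cox5a, Cox7a1 and Cyc1, and eBayes without trend those of Cox7a1 and Sdhb. With an array left out the lower probes ranged from 0 to 9 and the higher from 0 to 3. Of all probes these fits called 0.113% to 4.56% lower and 0.506% to 4.02% higher. The falls of Atp5mpl and Cox5a were lost on the background-subtracted scale (adjusted p 0.086 and 0.057). Averaging all probes of a gene, those near the array floor included, ended the calls of Sdhb, Sdhc and Atp5j and of the factors Uqcc1 and Ttc19. On the background-subtracted scale the shift of Cox8a minus Cox8b was 0.75, of Cox6a1 minus Cox6a2 0.58 and of Cox4i1 minus Cox4i2 0.40, each with exact permutation p adjusted over the pairs of 0.0476. The Cox4i2 probe lies near the array floor, and its own change went from −0.10 to −0.43 on that scale, so its shift is not read. On that scale the adjusted p of the Cox8 and Cox6a pairs passed only because the Cox4i2 pair also reached the smallest permutation p. With an array left out these shifts ranged from 0.57 to 0.82, 0.41 to 0.64 and 0.03 to 0.10, Cox7a2 minus Cox7a1 from 0.14 to 0.29 and Atp5g1 minus Atp5g3 from −0.20 to −0.093. Paired, the isoform shifts kept their values, and the 16 sign patterns allow no p under 0.125. The causes of these differences were not tested, and dim probes limit what can be seen.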
